A study of Mus musculus with 8 samples.

Results

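The Notch pathway was examined through 10 genes in the E11.0 mouse pancreas, comprising the receptors *Notch1*, *Notch2*, *Notch3* and *Notch4*, the ligands *Jag1*, *Jag2*, *Dll1* and *Dll4*, and the target genes *Hes1* and *Hey1*. The genes were chosen by symbol, and all 10 were found among the 24341 genes of the deposited table. Total RNA was sequenced from 8 pancreas buds of embryos at about 40 somites, with 1 library per bud. For strain, the paper names CD1 mice for its WT analyses and otherwise the floxed and Cre lines. A difference in strain background between the genotypes was not tested. The 5 WT buds are compared with 3 buds labelled Pdx1Creearly;Lats1f/f;Lats2f/f, named Lats1/2-null below. In these, Cre recombinase driven by *Pdx1* regulatory sequence deletes the kinase genes *Lats1* and *Lats2* in pancreatic progenitors. The WT label names no Cre allele, and the mesenchyme was peeled from every bud with forceps before RNA extraction. Blood vessels, nerves and remaining mesenchyme lie outside the *Pdx1* lineage, so their *Lats1* and *Lats2* alleles are not a target of this Cre. The question put to the data is whether the RNA of the Notch pathway differed between WT and Lats1/2-null buds.

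Notch receptors are single-pass membrane proteins that are activated by Jagged or Delta ligands on a neighbouring cell. Ligand pulling exposes the receptor to ADAM proteases and then to γ-secretase, which releases the intracellular domain. This domain enters the nucleus and joins RBPJ and Mastermind on target genes such as *Hes1* and *Hey1*, whose proteins are basic helix-loop-helix repressors. In the early pancreas, *Dll1* and *Jag1* are ligands of the epithelium, and HES1 holds back *Neurog3*, the gene that starts endocrine differentiation. *Notch4* and *Dll4* are best known from blood vessels, and *Notch3* from mural cells and mesenchyme.

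Expression is given as FPKM, in which the fragments of a gene are divided by transcript length and by the size of the library, so that levels of different genes can be set side by side. Between 16117 and 16982 genes were above 0 per library. From 440 single-exon genes, 1 fragment on a kilobase of transcript was worth 0.13 FPKM in WT replicate 5. It was worth 0.0989 to 0.106 FPKM in the other 7 libraries. If the FPKM were not rescaled between libraries, which was not tested, WT replicate 5 was the most shallow. At these steps, and for the 1 transcript that the basic GENCODE set lists for each gene, the values of the 10 genes rest on roughly 62.1 to 2890 fragments per library. As a check of the labels, all 3 Lats1/2-null buds had less *Lats1* than any WT bud (p = 0.0179 by a two-sided exact permutation test), whereas *Lats2* overlapped (p = 0.143 by the same exact test). Of all tested genes, 3.06% likewise lay lower in every Lats1/2-null bud. The Lats1/2-null mean was 0.774 of the WT mean for *Lats1* and 0.887 for *Lats2* (adjusted p = 0.269 and 0.589 from limma, described below). The markers of other cell types also differed. All 15 epithelial markers had a higher mean in Lats1/2-null buds, with a summed level of 236 to 308 FPKM in WT and 472 to 1142 FPKM in Lats1/2-null buds, the highest in Lats1/2-null replicate 3. All 20 endothelial markers had a lower mean, with summed levels of 251 to 412 and 170 to 276 FPKM, and 16 of 17 tested mesenchymal markers had a lower mean, with summed levels over the 18 listed of 694 to 930 and 316 to 740 FPKM. Of all tested genes, 46.9% had a higher mean. At an unadjusted p under 0.05 from limma, all 15 epithelial markers were higher, against 6.29% of all tested genes. At the same threshold only 6 of 20 endothelial and 4 of 17 mesenchymal markers were lower, against 4.99% of all tested genes, and 1 mesenchymal marker was higher. None of the listed epithelial, endothelial or mesenchymal markers was at 0 in every bud. In RNA pooled over the cells of a peeled bud, fewer cells of a type and less RNA per cell cannot be told apart. The amount of mesenchyme left on each bud after peeling is not given, and its part in these marker differences was not tested.

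No Notch gene differed between genotypes after correction. Each gene with a mean of at least 0.5 FPKM was compared with limma on log2(FPKM + 1), a scale on which the added 1 FPKM understates the change of low genes. Of the 10 genes, 0 passed an adjusted p of 0.05 by the Benjamini-Hochberg method, against 0.0145% of the 13777 genes tested. Without adjustment 1 of 10 had a p under 0.05, *Notch3*, which was lower, against 11.3% of all tested genes, so the Notch genes stood near the background. The genotypes overlapped in all 10 genes, while 7.51% of all tested genes had no overlap, 4.46% with higher and 3.06% with lower values in Lats1/2-null buds. The mean was higher in Lats1/2-null buds for *Notch1*, *Notch2*, *Jag1*, *Dll1* and *Hes1* and lower for the other 5 genes, against a higher mean in 46.9% of all tested genes. The median log2 fold change over the 10 genes was 0.0075.

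**Figure D1:**
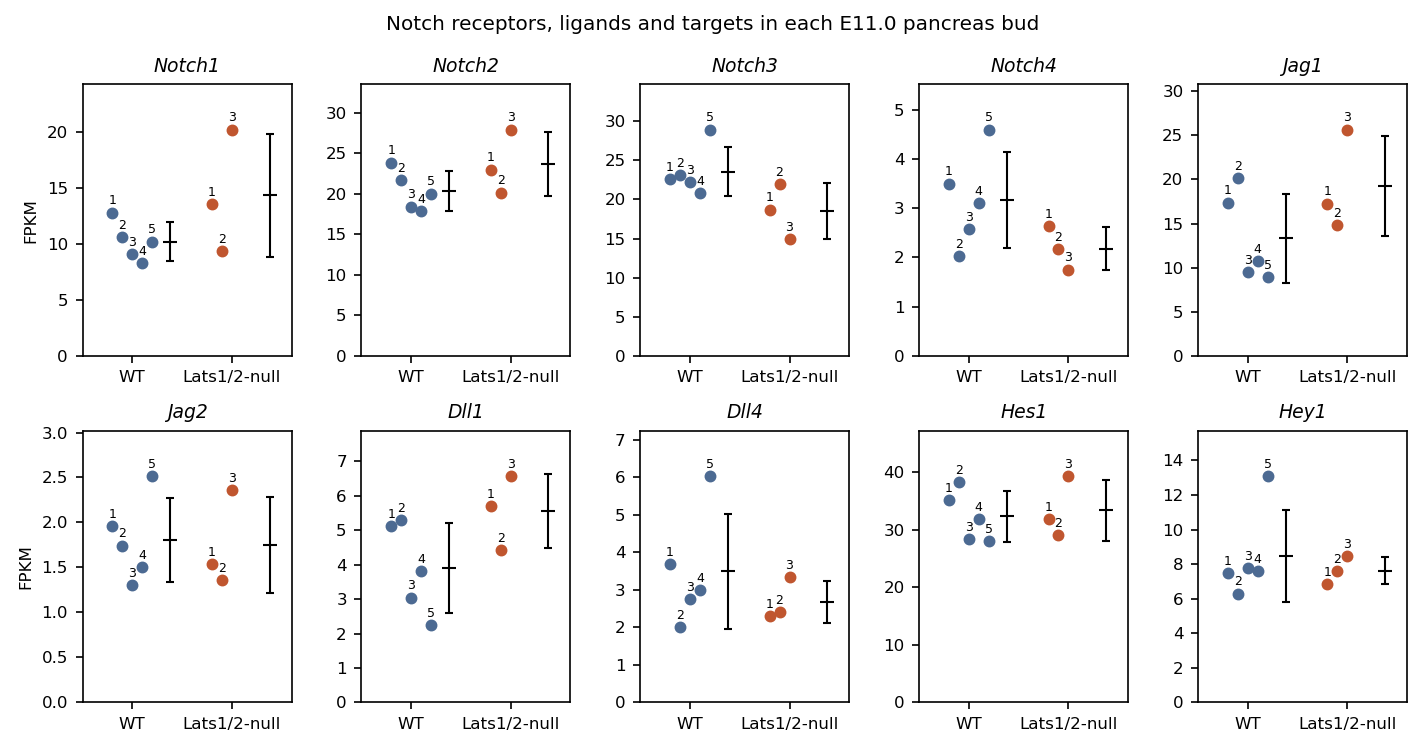
FPKM of each Notch gene (vertical axes, each from 0) in the 5 WT buds (blue) and 3 Lats1/2-null buds (orange), with the replicate number above each point and the mean ± SD as a black bar at its right. The genotypes overlap in every panel, Lats1/2-null replicate 3 is the highest bud for *Notch1*, *Notch2*, *Jag1*, *Dll1* and *Hes1*, and WT replicate 5 is the highest for *Notch3*, *Notch4*, *Jag2*, *Dll4* and *Hey1*.

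Among the receptors, the means of *Notch1* and *Notch2* were higher and those of *Notch3* and *Notch4* lower in Lats1/2-null buds. *Notch1*, on chromosome 2 of GRCm38 from 26457902 to 26503822 on the minus strand, encodes a receptor that acts in many embryonic progenitors. It was at 12.8, 10.6, 9.07, 8.26 and 10.2 FPKM in WT replicates 1 to 5 and at 13.5, 9.32 and 20.2 FPKM in Lats1/2-null replicates 1 to 3. Lats1/2-null replicate 3 was above every other bud, while Lats1/2-null replicate 2 lay inside the WT range. The log2 fold change was 0.41 (95% interval -0.082 to 0.90, adjusted p = 0.538 from limma), and it was 0.14 without Lats1/2-null replicate 3 and 0.66 without Lats1/2-null replicate 2 (unadjusted p = 0.454 and 0.00825 from limma).

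The promoter of *Notch1* is shown because loss of LATS kinases is known to free YAP1 and TAZ, which act through TEAD transcription factors, and because its window holds the TEAD core motif GGAATG. Capitals mark this motif, read here from the opposite strand as CATTCC, at 233 to 228 and 216 to 211 bases before the RefSeq start. The run covers the 250 bases before the start (RefSeq, GRCm38.p6, chr2:26503823-26504072, minus strand). GENCODE extends *Notch1* to 26516663, upstream of this start, so the run belongs to the RefSeq start only. The first 60 bases of the *Notch4* window (chr17:34564045-34564104, plus strand) hold the only other match among these genes, at 227 to 222 bases before the start.
Notch1 promoter: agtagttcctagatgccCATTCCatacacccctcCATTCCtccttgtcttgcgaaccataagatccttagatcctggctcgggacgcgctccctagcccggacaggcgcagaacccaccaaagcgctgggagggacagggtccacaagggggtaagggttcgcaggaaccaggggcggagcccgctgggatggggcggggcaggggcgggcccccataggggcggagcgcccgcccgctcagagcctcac
Notch4 promoter: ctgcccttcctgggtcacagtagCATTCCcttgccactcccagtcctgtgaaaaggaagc
Promoter windows of 250 bases before to 50 bases after the start were matched for 8 of the 10 genes, in 9 windows, with none for *Hes1* and *Hey1*. GGAATG was searched on both strands and was present in 2 of these 9 windows, against 4817 of 32851 windows of all genes (14.7%). The RBPJ core GTGGGAA, also searched on both strands, was present in 0 of 9 windows, against 2097 of all windows (6.38%). No window of these genes held both motifs. A match is a run of letters and not a measured binding site.

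*Notch2*, on chromosome 3 from 98013538 to 98150367 on the plus strand, encodes the receptor known from bile duct development. It was at 23.9, 21.7, 18.4, 17.9 and 20.02 FPKM in the WT buds and at 22.9, 20.1 and 27.9 FPKM in the Lats1/2-null buds. Only Lats1/2-null replicate 3 exceeded the WT range (log2 fold change 0.20, standard error 0.12, 95% interval -0.075 to 0.48, adjusted p = 0.589 from limma). Without that bud the log2 fold change was 0.081, and without Lats1/2-null replicate 2 it was 0.31 (unadjusted p = 0.518 and 0.0441 from limma).

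*Notch3*, on chromosome 17 from 32120893 to 32166852 on the minus strand, was the receptor with the highest mean in WT buds. Its FPKM was 22.6, 23.1, 22.2, 20.8 and 28.9 in the WT buds and 18.7, 21.9 and 14.9 in the Lats1/2-null buds. Lats1/2-null replicates 1 and 3 lay below every WT bud, and Lats1/2-null replicate 2 lay above WT replicate 4. The log2 fold change was -0.34 (standard error 0.13, 95% interval -0.64 to -0.034, unadjusted p = 0.0332 and adjusted p = 0.398 from limma). The exact permutation test over the 56 splits of the buds gave p = 0.0536 (two-sided), where the smallest p they allow is 0.0179. The difference was -0.20 without Lats1/2-null replicate 3 and -0.26 without WT replicate 5, with unadjusted p of 0.16 and 0.0576.

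*Notch4*, on chromosome 17 from 34564295 to 34588543 on the plus strand, is the vascular receptor of the family and had the lowest level of the receptors in every bud. It was at 3.496, 2.03, 2.58, 3.10 and 4.59 FPKM in the WT buds and at 2.63, 2.16 and 1.75 FPKM in the Lats1/2-null buds. Lats1/2-null replicate 3 lay below every WT bud and the other two lay inside the WT range (log2 fold change -0.37, standard error 0.20, 95% interval -0.82 to 0.090, adjusted p = 0.552 from limma).

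Among the ligands, the means of *Jag1* and *Dll1* were higher and those of *Jag2* and *Dll4* lower in Lats1/2-null buds. *Jag1*, on chromosome 2 from 137081451 to 137116520 on the minus strand, was the ligand with the highest level in every bud. It was at 17.3, 20.1, 9.47, 10.7 and 8.92 FPKM in the WT buds and at 17.2, 14.8 and 25.6 FPKM in the Lats1/2-null buds. WT replicates 1 and 2 overlapped the Lats1/2-null buds, and the WT buds alone spanned 8.92 to 20.1 FPKM. The log2 fold change was 0.53 (standard error 0.28, 95% interval -0.10 to 1.17, adjusted p = 0.535 from limma), so a rise to 2.24-fold on this scale lies inside the interval. Without Lats1/2-null replicate 3 the log2 difference of *Jag1* was 0.32. The paper lists *Jag1*, at these same mean levels, among known TEAD targets. By qPCR at a later stage it found more *Jag1* RNA in mutant pancreas.

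*Dll1*, on chromosome 17 from 15367354 to 15375823 on the minus strand, encodes a ligand that marks cells entering endocrine differentiation. It was at 5.12, 5.29, 3.04, 3.81 and 2.25 FPKM in the WT buds and at 5.70, 4.43 and 6.57 FPKM in the Lats1/2-null buds. Lats1/2-null replicates 1 and 3 exceeded every WT bud, and Lats1/2-null replicate 2 did not (log2 fold change 0.45, standard error 0.23, 95% interval -0.068 to 0.97, adjusted p = 0.519 from limma). Beside it, *Neurog3* averaged 2.40 ± 0.668 FPKM (SD, n = 5) over the WT buds and 4.45 ± 1.70 FPKM (SD, n = 3) over the Lats1/2-null buds (log2 fold change 0.65, unadjusted p = 0.0185 and adjusted p = 0.335 from limma). In the same buds the mean of the epithelial markers was higher by 1.24 on the log2 scale. By immunostaining at an earlier stage, the paper found a lower proportion of NEUROG3-positive cells in the mutant epithelium. At a later stage it assayed *Neurog3* and other endocrine genes by qPCR, and describes their RNA as undetectable in mutants.

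*Dll4*, on chromosome 2 up to 119335666 on the plus strand, is the main Delta ligand of arterial and sprouting endothelium. The table's locus begins at 119321199, ahead of the RefSeq start of the gene at 119325784. *Dll4* was at 3.69, 2.00, 2.75, 3.00 and 6.03 FPKM in the WT buds and at 2.30, 2.40 and 3.33 FPKM in the Lats1/2-null buds. All 3 Lats1/2-null values lay inside the WT range (log2 fold change -0.24, 95% interval -0.81 to 0.33, adjusted p = 0.778 from limma), and the difference was -0.063 without WT replicate 5.

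*Jag2*, on chromosome 12 from 112908590 to 112929495 on the minus strand, had the lowest mean of the 10 genes. It was at 1.96, 1.74, 1.30, 1.505 and 2.51 FPKM in the WT buds and at 1.53, 1.36 and 2.36 FPKM in the Lats1/2-null buds. All 3 Lats1/2-null values lay inside the WT range (log2 fold change -0.030, 95% interval -0.44 to 0.38, adjusted p = 0.966 from limma).

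The target genes differed little in their means. *Hes1*, on chromosome 16 from 30065357 to 30067796 on the plus strand, had the highest mean of the 10 genes in both genotypes, with 35.2, 38.2, 28.3, 31.8 and 28.0 FPKM in the WT buds and 31.8, 29.1 and 39.3 FPKM in the Lats1/2-null buds. Lats1/2-null replicates 1 and 2 lay inside the WT range and replicate 3 just above it. The log2 fold change of 0.045 had an adjusted p of 0.925 from limma. Its 95% interval of -0.24 to 0.33, or 0.846- to 1.26-fold on the log2(FPKM + 1) scale, leaves out a doubling of *Hes1*.

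*Hey1*, on chromosome 3 from 8663359 to 8667038 on the minus strand, encodes a repressor of the same family that is prominent in arterial endothelium. It was at 7.49, 6.29, 7.78, 7.59 and 13.1 FPKM in the WT buds and at 6.86, 7.58 and 8.45 FPKM in the Lats1/2-null buds. The bud that stands apart is WT replicate 5, and the Lats1/2-null values lay inside the WT range (log2 fold change -0.096, 95% interval -0.53 to 0.34, adjusted p = 0.898 from limma). Without WT replicate 5 the log2 fold change was 0.058.

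**Figure D2:**
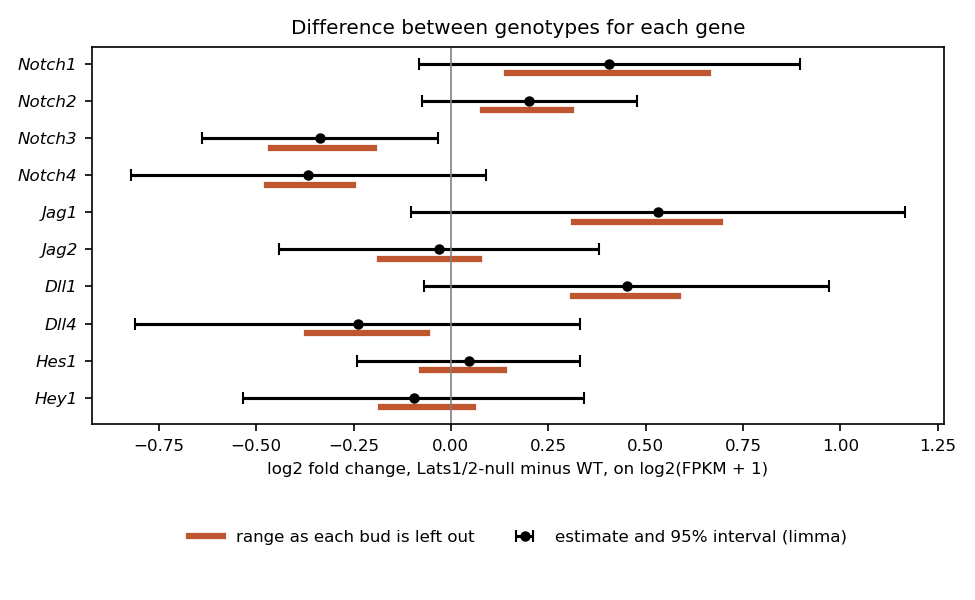
Difference between genotypes for each Notch gene on the log2(FPKM + 1) scale (horizontal axis, Lats1/2-null minus WT), as the limma estimate with its 95% interval (black) and the range of the estimate as each of the 8 buds was left out in turn (orange). The interval of *Notch3* alone leaves out 0, and the orange ranges of *Jag2*, *Hes1* and *Hey1* cross 0.

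The levels fell in the order *Hes1*, *Notch3*, *Notch2*, *Jag1*, *Notch1*, *Hey1*, *Dll1*, *Dll4*, *Notch4* and *Jag2* by mean FPKM in WT buds. Only *Hey1* and *Dll1* were neighbours whose WT ranges did not overlap. *Notch2* was above *Jag1*, *Hey1* above *Dll1*, and *Notch4* above *Jag2*, in 5 of 5 WT buds, and *Dll4* was above *Notch4* in 3 of 5. *Notch3* exceeded *Notch2* in 4 of 5 WT buds and in 1 of 3 Lats1/2-null buds.

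The make-up of the receptor pool was described within each library, where scaling between libraries plays no part. *Notch3* supplied 36.01% to 45.4% of the summed receptor FPKM in WT buds and 32.3%, 41.0% and 23.0% in the Lats1/2-null buds. *Notch1* supplied 16.0% to 20.4% in WT buds and 23.4%, 17.4% and 31.2% in the Lats1/2-null buds. In both shares Lats1/2-null replicates 1 and 3 lay outside the WT range and replicate 2 inside it. The ratio of *Notch1* to *Notch3* was 0.353 to 0.566 in WT buds and 0.723, 0.425 and 1.35 in the Lats1/2-null buds (exact permutation test on the log2 ratio, two-sided, p = 0.0536). The ratio of *Notch2* to *Notch3* was 0.693 to 1.06 in WT buds and 1.23, 0.917 and 1.87 in the Lats1/2-null buds (exact permutation test, p = 0.0536). With 13 such ratios compared between genes of one role, the adjusted p of each of these ratios was 0.29. The summed receptor level itself was 50.1 to 63.7 FPKM in WT and 53.6 to 64.7 FPKM in Lats1/2-null buds.

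The ligand pool was led by *Jag1*, which supplied 45.3% to 69.0% of the summed ligand FPKM in WT buds and 64.4% to 67.6% in the Lats1/2-null buds. The ratio of *Jag1* to *Dll1* was 2.81 to 3.97 in WT buds and 3.03, 3.34 and 3.90 in the Lats1/2-null buds, so these ligands kept a like proportion across buds that differed in the level of each. The log2 ratio differed by 0.0063 between genotypes (exact permutation test, two-sided, p = 0.982). WT replicate 5 differed from the other buds in this pool, with *Dll4* at 30.6% of the ligand FPKM against 6.86% to 16.6% in the other WT buds. The ratio of *Hes1* to *Hey1* was 2.14 in WT replicate 5 and 3.64 to 6.08 in the other WT buds, against 3.84 to 4.65 in the Lats1/2-null buds.

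**Figure D3:**
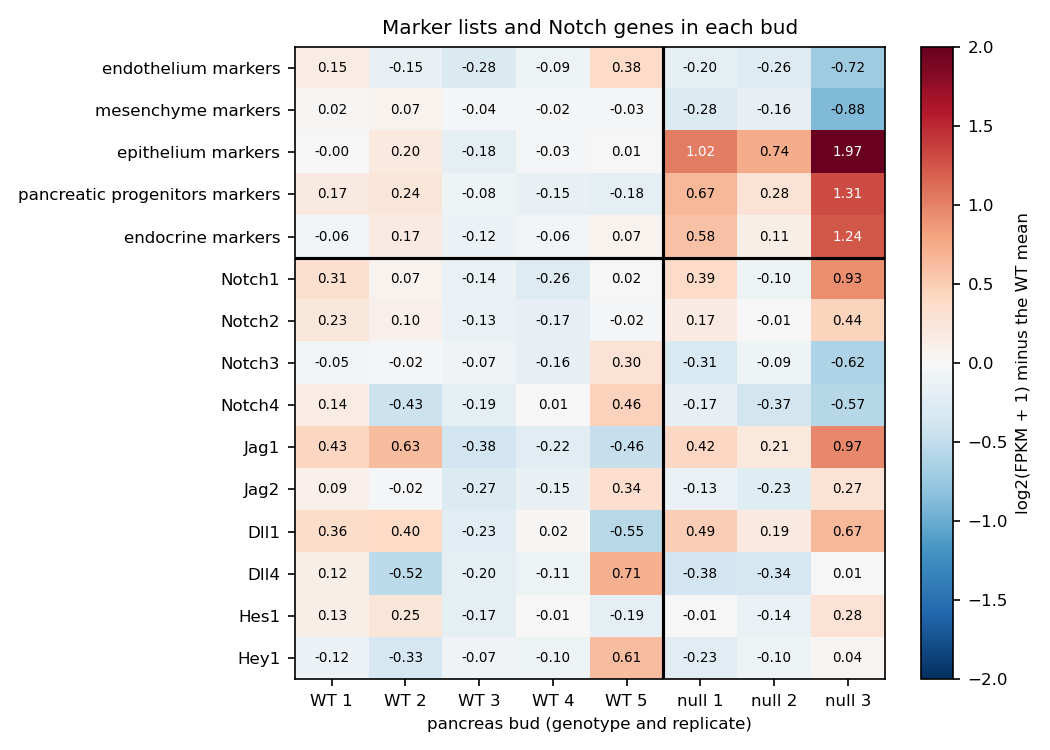
Mean log2(FPKM + 1) of marker lists (upper rows) and log2(FPKM + 1) of the Notch genes (lower rows) in each of the 8 buds (columns), as the difference from the mean of the 5 WT buds, with red for higher and blue for lower. Lats1/2-null replicate 3 has the largest values in the rows of epithelial (1.97), endothelial (-0.72) and mesenchymal (-0.88) markers and also in those of *Notch1* (0.93), *Jag1* (0.97) and *Notch3* (-0.62).

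Marker levels also differed from bud to bud. Relative to the WT mean, Lats1/2-null replicates 1, 2 and 3 stood at 1.02, 0.74 and 1.97 on the log2 scale for the mean of the epithelial markers. For the endothelial markers they stood at -0.20, -0.26 and -0.72, and for the mesenchymal markers at -0.28, -0.16 and -0.88. The part of cell make-up in the differences of the Notch genes was not tested. Instead, each gene was set against the marker mean of the same bud. *Notch4* minus the mean of the endothelial markers was -1.61 ± 0.159 (SD, n = 5) in WT and -1.58 ± 0.130 (SD, n = 3) in Lats1/2-null buds on the log2 scale. The difference of 0.026 was smaller than the SD of either genotype (two-sided exact permutation test, p = 0.839). *Notch3* minus the same mean differed by 0.054 (exact permutation test, p = 0.732), and minus the mean of the mesenchymal markers by 0.10 (exact permutation test, p = 0.464). Against the endothelial markers, *Dll4* differed by 0.15 and *Hey1* by 0.30, both higher in Lats1/2-null buds (exact permutation tests, p = 0.607 and 0.25), while their differences without markers were -0.24 and -0.096. The other 6 genes differed by 0.36 to 0.92, and 0 of the 10 had an adjusted p under 0.05 (exact permutation tests, lowest adjusted p = 0.179).

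Set against the epithelial markers, 9 of the 10 Notch genes lay lower in every Lats1/2-null bud than in every WT bud, and *Dll1* overlapped. The differences ranged from -1.61 for *Notch4* to -0.71 for *Jag1*, and 8 of them had an adjusted p of 0.0223 (exact permutation test, two-sided, adjusted over the 10 genes). The same held for 91.6% of all 13777 genes tested, since the epithelial markers themselves were higher by 1.24 on the log2 scale. The count of Notch genes was thus close to the background of all genes. Set against the endothelial markers, 0 of the 10 genes were free of overlap, against 12.3% of all tested genes higher and 0.102% lower. Set against the mesenchymal markers, *Dll1* was higher in every Lats1/2-null bud, against 32.9% of all tested genes higher and 0.0508% lower. The gap was narrow, from -1.655 in WT replicate 1 to -1.642 in Lats1/2-null replicate 2 (exact permutation test, two-sided, p = 0.0357, adjusted p = 0.119).

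**Figure D4:**
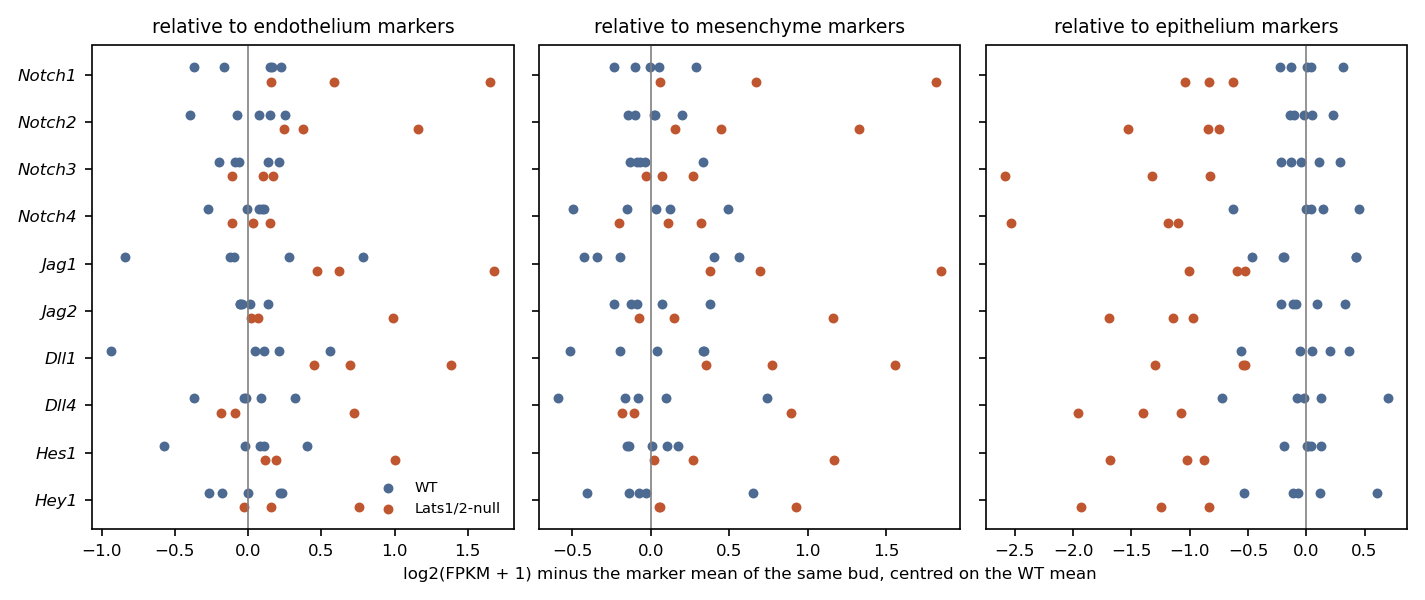
log2(FPKM + 1) of each Notch gene minus the mean of the endothelial (left), mesenchymal (middle) or epithelial (right) markers of the same bud, centred on the WT mean (horizontal axes), for WT (blue) and Lats1/2-null buds (orange). The genotypes overlap for *Notch4* and *Notch3* against endothelial markers, with differences of 0.026 and 0.054, and in the right panel all points of the Lats1/2-null buds lie below 0.

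Across the 8 buds, 30 relations between a Notch gene and a marker mean were computed, and 0 had an adjusted p under 0.05. The closest was *Notch4* with the endothelial markers (Pearson's r = 0.91, exact permutation p = 0.00171, adjusted p = 0.0513, and Spearman's rho = 0.83, exact permutation p = 0.0154, adjusted p = 0.344). Without WT replicate 5 and Lats1/2-null replicate 3, the buds farthest from the median of the endothelial markers, r was 0.75. For *Notch3* the r with the same markers was 0.89 (exact permutation p = 0.0106, adjusted p = 0.0872, and Spearman's rho = 0.67, exact permutation p = 0.0831, adjusted p = 0.415). It was 0.22 without these buds, on which the relation rests. These permutations exchanged buds across the genotypes. The endothelial markers, *Notch4* and *Notch3* all had a lower mean in Lats1/2-null buds. The p-values thus cannot separate a relation between buds from the difference between genotypes. For the epithelial and the mesenchymal markers the genotypes form separate clusters. Their relations over all buds were counted among the 30 and in the adjustment, but are not given singly. The 5 WT or 3 Lats1/2-null buds are too few for a relation within a genotype.

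The other genes of the pathway were described from a list of 59, of which 53 were tested. In Lats1/2-null buds 18 had a higher and 35 a lower mean, with a median log2 fold change of -0.041, and 0 passed an adjusted p of 0.05 from limma. Without adjustment 1 higher gene, *Hes6*, and 2 lower genes, *Rbpj* and *Tle4*, had a p under 0.05, against 6.29% of all tested genes higher and 4.99% lower. All 12 corepressor genes and 8 of 9 genes of the nuclear complex had a lower mean, of which 1 each passed the unadjusted threshold. For comparison, 46.9% of all tested genes had a higher mean. The median log2 fold changes of these classes were small, at -0.074 for the corepressors and -0.10 for the nuclear complex. All differences lay between -0.45 and 0.51 on the log2 scale.

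*Rbpj* encodes the DNA-binding protein through which all 4 receptors act, and among the Notch pathway genes described here it was the clearest difference. It was at 23.9, 22.3, 23.96, 21.96 and 24.5 FPKM in the WT buds and at 18.0, 19.4 and 18.1 FPKM in the Lats1/2-null buds. Every Lats1/2-null bud lay below every WT bud, as did 3.06% of all tested genes. Its log2 fold change was -0.32 with a 95% interval of -0.46 to -0.17, an unadjusted p of 0.000746 and an adjusted p of 0.140 from limma. Leaving out single buds gave -0.35 to -0.30. In the 15 unpaired alternatives the adjusted p from limma went from 0.0235, with array weights, to 0.362. GENCODE M21 lists 2 processed copies of *Rbpj* as pseudogenes, and how reads were divided among them was not tested.

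*Snw1*, which encodes a cofactor of RBPJ, also had no overlap, at 72.1 to 88.1 FPKM in WT and 71.6 to 72.0 FPKM in Lats1/2-null buds, a gap of under 1 FPKM (log2 fold change -0.14, unadjusted p = 0.0931 from limma). The Mastermind coactivators *Maml1*, *Maml2* and *Maml3* had log2 fold changes of -0.022, -0.22 and -0.26, and for each of them Lats1/2-null replicate 3 alone lay below every WT bud. *Tle4*, a Groucho corepressor recruited by HES proteins, was at 46.8, 44.9, 59.96, 51.8 and 67.1 FPKM in the WT buds and at 45.0, 48.0 and 27.1 FPKM in the Lats1/2-null buds. Its log2 fold change of -0.45 (unadjusted p = 0.0459 from limma) was -0.20 without Lats1/2-null replicate 3, the only bud below the WT range.

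Among the remaining Hes and Hey genes, *Hes6*, whose protein opposes HES1, was at 14.6, 15.4, 18.6, 13.4 and 12.2 FPKM in the WT buds and at 18.7, 20.5 and 16.2 FPKM in the Lats1/2-null buds. Its log2 fold change was 0.31 (unadjusted p = 0.0441 and adjusted p = 0.426 from limma), and WT replicate 3 overlapped the Lats1/2-null buds. *Nrarp*, a target whose protein feeds back on the receptor, was at 3.66 to 7.31 FPKM in WT and 3.87 to 7.36 FPKM in Lats1/2-null buds (log2 fold change 0.11, adjusted p = 0.901 from limma). *Hes5*, a Notch target of neural tissue, reached at most 0.417 FPKM in any bud and was not tested, nor were *Hes2*, *Hes3* and *Hes7*.

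The ligand *Dll3*, which does not activate receptors on neighbouring cells, was at 0.908 to 2.13 FPKM in WT and at 1.89, 2.59 and 4.48 FPKM in Lats1/2-null buds (log2 fold change 0.51, unadjusted p = 0.0626 and adjusted p = 0.485 from limma). *Lfng*, a glycosyltransferase that tunes the response to Delta and Jagged ligands, was at 1.69 to 2.93 FPKM in WT and 1.70 to 3.38 FPKM in Lats1/2-null buds. The smallest p among the proteases was that of *Psenen*, a γ-secretase subunit (log2 fold change -0.16, adjusted p = 0.537 from limma). *Mib1*, the ubiquitin ligase that starts ligand endocytosis, and *Dtx4*, a Deltex gene, had the smallest p of their groups, with log2 fold changes of -0.064 and 0.41 (adjusted p = 0.752 and 0.515 from limma).

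**Figure D5:**
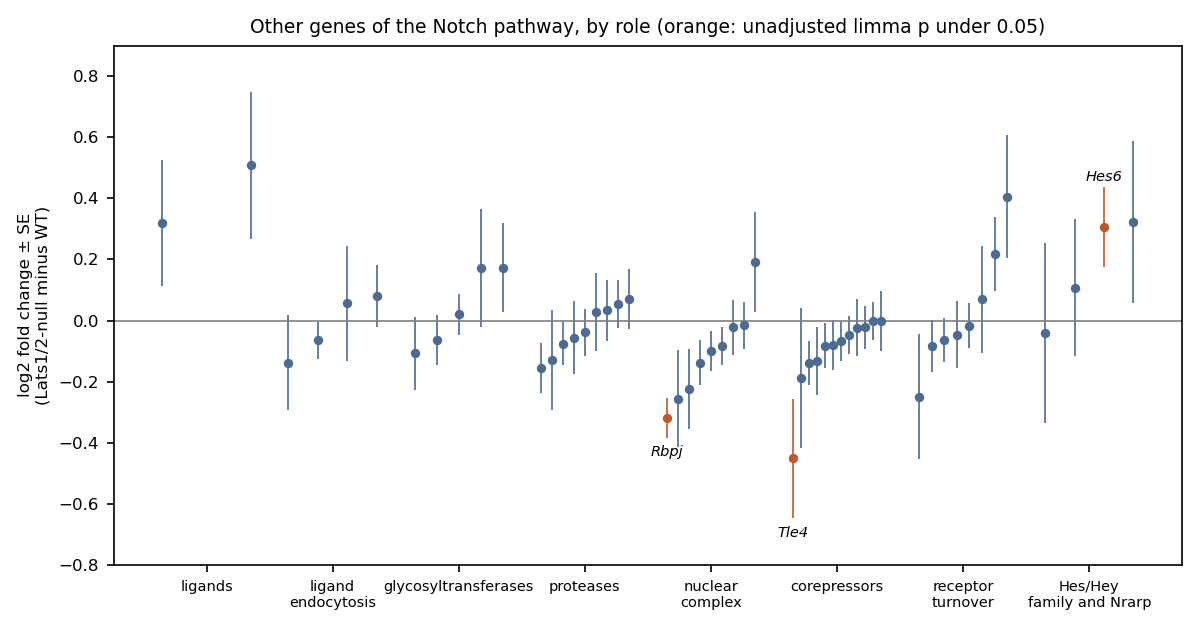
log2 fold change (vertical axis, Lats1/2-null minus WT on log2(FPKM + 1), bars ± standard error) of the 53 other tested Notch pathway genes, grouped by role along the horizontal axis. *Rbpj* (-0.32), *Tle4* (-0.45) and *Hes6* (0.31), in orange, had an unadjusted p under 0.05, and all 12 corepressor genes lie at or below 0.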

How the data were processed

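Total RNA from 8 buds was sequenced. The authors aligned reads with TopHat 2.1.0 to GRCm38 and deposited FPKM per gene from Cufflinks 2.2.1, 1 column per bud. The methods state quantile normalization, yet the deposited columns differ in distribution, with upper quartiles of genes above 0 from 19.8 to 21.5 FPKM, and were used as deposited. Other units in the deposited table are status words, of which 1 gene in 1 library was not OK. Columns were matched to samples by the run names in the labels. FPKM are not counts, so genes averaging 0.5 FPKM or more were log2-transformed after adding 1 FPKM and compared by limma (version 3.58.1, R 4.3.3, trend option, Benjamini-Hochberg adjustment). Exact two-sided permutation tests used the 56 splits of the buds. The script was tested on simulated data. P-values measure the spread between buds, each from 1 embryo.

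The Notch genes and all lists were chosen with earlier results of these data known. Named beside them are *Rbpj*, *Dll3*, *Lfng*, *Hes5* and *Nrarp*, each listed pathway gene with an unadjusted p under 0.05, and otherwise the gene with the smallest p of its class. *Snw1* and the Mastermind genes were named after their values were seen. In GENCODE M21, 7 of the 10 genes overlap another gene, 3 of them on the same strand, *Notch1*, *Notch2* and *Jag2*. Libraries were stranded. Start coordinates of the table were read as counted from 0, since most lie 1 below the RefSeq starts, and are given counted from 1. Promoters are from RefSeq (GRCm38.p6). Figures were drawn with matplotlib 3.10.9.

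The alternatives were a pseudocount of 0.1 FPKM, quantile normalization or median-ratio scaling of the table, a filter at 2 FPKM or none, array weights, no mean-variance trend, a replicate block and each bud left out in turn. A further gene with a pattern like that of *Notch3* is not reported here.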

Additional observations from a re-analysis of the deposited data

Results flagged for a closer look

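In the 5 WT buds, the highest value of 2 Notch genes stood apart from the other 4 by more than 0.71 of the whole range. These were *Hey1*, at 13.1 FPKM in WT replicate 5, and *Notch3*, at 28.9 FPKM in the same bud. The gap took 0.781 of the range for *Hey1* and 0.721 for *Notch3*. Chance flags about 1 in 20 groups, and 10 groups were examined. WT replicate 5 also had the highest mean of the endothelial markers, 0.38 above the WT mean on the log2 scale, and the largest FPKM per fragment. The part of either in these values was not tested.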

How the results depend on the processing

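Of 159 estimates for the 10 Notch genes under alternatives, 149 kept their direction, and in 0 of them did the adjusted p from limma pass 0.05. Direction changed for *Jag2* (0.034 with the replicate block, -0.18 to 0.072 as each bud was left out), *Hes1* (-0.054 with array weights, -0.022 with the block, -0.074 to 0.14 as buds were left out) and *Hey1* (0.076 with the block, -0.18 to 0.058 as buds were left out). Set against marker means, it changed for *Notch4* with a pseudocount of 0.1 FPKM (-0.051 against endothelium, -0.030 against mesenchyme) and as buds were left out. Those ranges were -0.043 to 0.093 and -0.048 to 0.22 for *Notch4*, -0.13 to 0.32 and -0.14 to 0.39 for *Dll4*, and -0.0032 to 0.14 for *Notch3* against endothelium. Against the epithelial markers no direction changed, but with a Lats1/2-null bud left out the smallest exact p is 0.0476, and the adjusted p of 8 genes was then 0.0595. For *Dll4* the adjusted p from the exact test was also 0.0635 without WT replicate 1, 3 or 4. For *Jag1* and *Dll1* it fell to 0.0286 without WT replicate 5.

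The count of Notch genes at an unadjusted p under 0.05 was 0 with the replicate block and 0 to 3 as each bud was left out. It was 0 without WT replicate 5, Lats1/2-null replicate 1 or Lats1/2-null replicate 3, 2 without WT replicate 1, and 3 without WT replicate 2 or Lats1/2-null replicate 2. For the other pathway genes it was 1 without a mean-variance trend and 1 to 4 as each bud was left out, with 1 without WT replicate 4 or WT replicate 5. Of all genes, limma called 2, against 18 with a pseudocount of 0.1 FPKM, 174 with array weights, 1 without a trend, 1 with the replicate block, and 0 to 19 as each bud was left out. The 19 came without Lats1/2-null replicate 3, and 0 without WT replicate 1, 2, 3 or 5, where 1289 to 1536 genes had an unadjusted p under 0.05. It was 4 without WT replicate 4, 1 without Lats1/2-null replicate 1 and 6 without Lats1/2-null replicate 2. The cause was not tested. Same-numbered buds had correlations across genes of 0.085, -0.097 and 0.069, inside the range of -0.11 to 0.14 of the other pairs. No pairing by number was thus seen, though so few pairs cannot exclude one. The paper compared mutants with WT or heterozygous littermates, and the tests here took no account of litters. The larger FPKM per fragment in WT replicate 5 limits its low values.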

Other observations

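Markers of further cell types were measured in the same buds, with means compared on the log2(FPKM + 1) scale. Of all genes tested, 46.9% had a higher mean in Lats1/2-null buds, and at an unadjusted p under 0.05 from limma 6.29% were higher and 4.99% lower. All 11 endocrine genes had a higher mean, 8 of them at an unadjusted p under 0.05 from limma, with summed levels of 696 to 905 FPKM in WT and 882 to 2246 FPKM in Lats1/2-null buds, mostly *Gcg*. Of 11 pancreatic progenitor genes, 10 had a higher mean, 6 at an unadjusted p under 0.05, while *Ptf1a*, a gene of acinar and early progenitor cells, averaged 2.43 ± 0.662 FPKM (SD, n = 5) over the WT buds and 2.07 ± 0.508 FPKM (SD, n = 3) over the Lats1/2-null buds. Mural cell genes, the best known site of *Notch3*, had a lower mean for 7 of 8, 1 at an unadjusted p under 0.05, with summed levels of 32.4 to 63.5 and 39.2 to 44.4 FPKM. Leukocyte genes had a higher mean for 4 of 7, nerve and neural crest genes for 6 of 8, red blood cell genes for 8 of 8 tested on the log2 scale and liver genes for 5 of 5 tested. The summed red blood cell level of 8085 to 10223 FPKM in Lats1/2-null buds lay inside the WT range of 2653 to 15802 FPKM, and in FPKM the mean of *Hbb-bh1* was lower, at 1190.2 against 1215 in WT. Of these lists, 1 leukocyte and 1 nerve or neural crest gene had an unadjusted p under 0.05.

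The genes most like each Notch gene over the 8 buds were found by Pearson's r of log2(FPKM + 1) among the 11467 genes that averaged 2 FPKM or more. They are given as a description, since with 8 shared libraries some of so many genes are bound to be close. For *Notch4* they were *Icam2*, an endothelial adhesion gene of the marker list (r = 0.98), *Wnt4* (0.97) and *Dach2* (0.96). For *Notch3* they included *Zeb1*, a repressor of epithelial genes (0.99), and *Fhod1* (0.99). For *Hey1* they were *Arih1* (0.99) and the glycolytic genes *Pgk1* (0.98) and *Ldha* (0.97). *Notch1* was most like *Srgap3*, *A1cf* and *Nav2* (0.97 to 0.98), and *Notch2* most like *Notch1* (0.97), *Arhgap5* and *Rian*. *Jag1* was most like *Slc38a4*, *Arl14ep* and *P4ha3*, *Jag2* most like *Snx14*, *Gm10406* and *Ube2e2*, and *Dll1* most like *Frk*, *Slco3a1* and *Elf4* (0.97 to 0.98 for these 9). *Dll4* was most like *Glce*, *Mtmr3* and *Nubpl* (0.95 to 0.97), and *Hes1* most like *Bace1*, *Enox1* and *Nuak1* (0.94 to 0.97).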
